A study of Mus musculus with 33 samples.

Results

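The response of mouse spleen cells to CpG oligodeoxynucleotide (ODN) after 4 h in culture was described by setting 4 arrays of CpG ODN cultures against 4 arrays of control ODN cultures. These 8 arrays were chosen by their labels, as all arrays of those treatments at 4 h, out of 33 in the series. Each array measured RNA from whole spleen cells of female BALB/c mice, 2 months old, labelled with Cy5. The Cy3 channel of each array held Universal Mouse Reference RNA, a mixture of lymphocytes, macrophages and several other tissues. The CpG ODN was an equal mix of ODN 1555 and ODN 1466, and the control ODN an equal mix of ODN 1612 and ODN 1471, each given at 1 uM. The control ODN lacks CpG motifs and was included in the study to account for effects of any ODN whatever its sequence, and 4 arrays of cells kept in medium at 4 h were included to account for handling and culture. CpG ODN and control ODN cultures of 2 h (4 arrays each) and 8 h (3 arrays each) are used below for the change over time. Dyes were not swapped, so ratios carry any dye effect of a gene, which cancels between treatments.

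DNA with unmethylated CpG motifs is common in bacteria and rare in vertebrates. In endosomes it binds Toll-like receptor 9, which B cells and dendritic cells of the mouse spleen carry, and macrophages as well. The adaptor Myd88 then leads to the activation of NF-kB and of MAP kinases that feed AP-1 factors, and in some cells to type I interferon. Interferon acts back on many cell types through JAK-STAT signalling. Early targets of this pathway include cytokines, chemokines and the inhibitors that limit the response.

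Every value below is a deposited log ratio of spleen cell RNA over reference RNA, read as log2 and centred on its array's median, and a difference is CpG ODN minus control ODN unless another is named. The log base is not stated in the sources used here; it was read as 2 because the deposited values run from -6.51 to 8.54. The 8 arrays had 10452 to 10978 measured probes out of 16720, and the table gives no other measure of depth. Correlations across genes ran from 0.784 to 0.938 between arrays of the same treatment and from 0.793 to 0.944 between arrays of different treatments, all of which share the reference RNA. Markers of spleen lymphocytes lay above the reference: over 10 B cell markers measured on all 8 arrays the mean ratio was 1.91 in CpG ODN cultures and 1.88 in control ODN cultures, and over 8 T cell markers it was 1.79 in CpG ODN cultures and 1.74 in control ODN cultures. Over 11 markers of tissues outside the spleen the mean was -1.68 in CpG ODN cultures and -1.64 in control ODN cultures. Of the 92 markers tested, 15 of them of tissues outside the spleen, 0 were called, beside 37 of all 9630 genes (0.384%). At so low a share, 0 of 92 says little about the make-up of the cultures. Markers of neutrophils and their precursors had a mean over 8 genes of 2.58 in CpG ODN cultures (1.83 to 3.40 on single arrays) and 3.04 in control ODN cultures (1.92 to 3.63), ranges that overlapped, and the part of these cells in the results was not tested. In RNA from mixed cells, fewer cells of a type and less RNA per cell cannot be told apart. The study's design text speaks of 3 to 4 independent experiments, but nothing says which arrays came from separate animals. The p-values therefore measure the spread between arrays of a group, estimated over all 33 arrays of the series and not the 8 alone.

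After 4 h, 37 of 9630 genes were called, which is 0.384% of the genes tested, and all 37 were higher in CpG ODN cultures than in control ODN cultures. A call means a limma p below 0.05 after Benjamini-Hochberg adjustment over all genes tested. The largest differences were those of the cytokine Tnf (2.96, or 7.81-fold), Il12b, which encodes the shared subunit of interleukins 12 and 23 (2.85, or 7.2-fold), the chemokine Ccl3 (2.33, or 5.04-fold), the NF-kB cofactor Nfkbiz (2.27, or 4.83-fold) and the amino acid oxidase Il4i1 (2.08, or 4.22-fold). These 5 exceeded 2 on the log2 scale, 30 genes reached 1, and 7 lay below 1, down to 0.82 for the tRNA exporter Xpot. Limma called 0 genes lower in this fit, while 71 genes were lower and 234 higher before adjustment (unadjusted p below 0.05), 305 in all or 3.17% of the genes tested. The median difference of all genes was -0.01. The 95% confidence interval of a gene's difference reached, in the median, 0.52 to either side. The count of 37 was 19 without control ODN array 3 and 22 without CpG ODN array 3. It was 10 without both of these, an alternative chosen after seeing the data, 9 when only the 8 arrays entered the fit, and 61, with Plin2 and Ccr6 called lower, when arrays were weighted by quality.

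**Figure D1:**
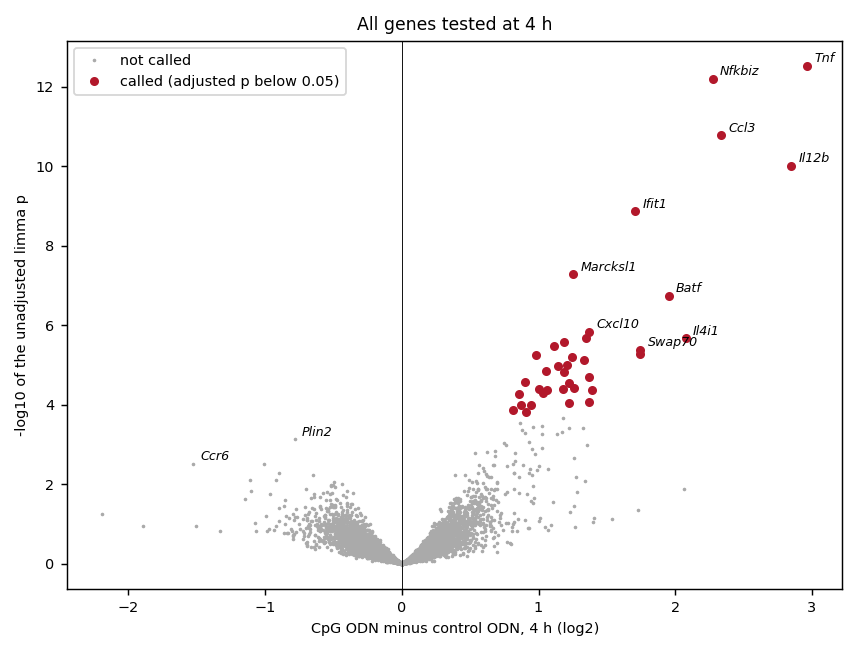
Difference between CpG ODN and control ODN cultures at 4 h (x axis, log2) against -log10 of the unadjusted limma p (y axis) for the 9630 genes tested, with the 37 called genes in red. Every called gene lies to the right of 0, from 0.82 to 2.96, and Plin2 and Ccr6 stand out on the left without being called.

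On single arrays the called genes hardly overlapped between treatments. Of the 37, 31 were measured on all 8 arrays, and for 30 of these every CpG ODN array lay above every control ODN array. The exception was Tlr7, with 1.89, 1.45, 2.55 and 2.55 on CpG ODN arrays 1 to 4 against 1.15, 1.10, 0.97 and 1.58 on control ODN arrays 1 to 4. Of all 7301 genes measured on the 8 arrays, 112 (1.53%) had this order and 67 (0.918%) the opposite one. The same arrays gave the calls, so the order is a description of the called genes and not further evidence for them. Over the 31 genes, CpG ODN array 3 lay highest, at a mean of 1.63 above the control ODN mean, followed by array 4 with 1.48, array 1 with 1.32 and array 2 with 1.17. Array 3 was the highest CpG ODN array for 16 of the 31 genes and array 2 the lowest for 19.

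**Figure D2:**
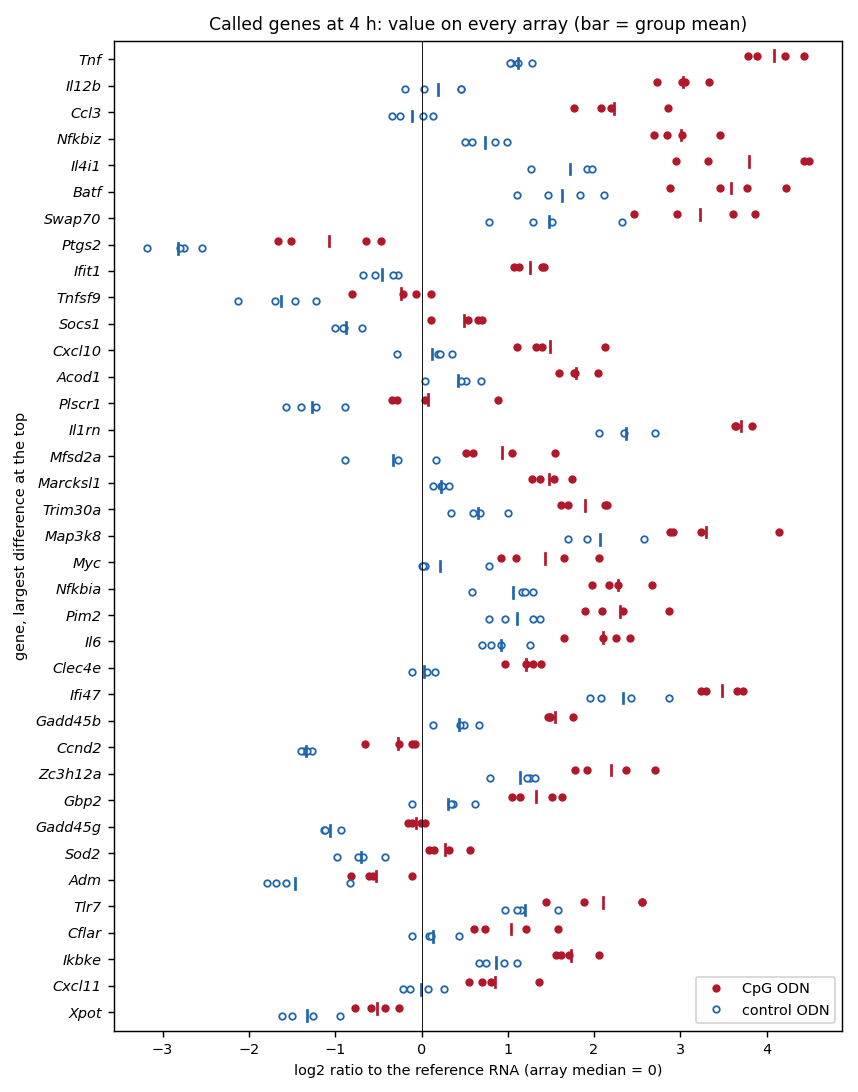
Log2 ratio to the reference RNA (x axis) of each of the 37 called genes (y axis) on every measured 4 h array, with CpG ODN arrays as filled red points, control ODN arrays as open blue points and bars at the means. The red and blue points of a gene are separate in all rows but that of Tlr7, and the means range from -2.82 for Ptgs2 in control ODN cultures to 4.08 for Tnf in CpG ODN cultures.

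For 17 of the 37 genes the call held with any 1 of the 8 arrays left out. These were Tnf, Il12b, Il6, Ccl3, Cxcl10, Nfkbiz, Batf, Gadd45b, Ifit1, Ifi47, Trim30a, Ptgs2, Sod2, Swap70, Marcksl1, Plscr1 and Il4i1. The other 20 lost it without at least 1 array, although their differences stayed above 0 throughout. Of 8 such fits, Acod1, Adm, Ikbke, Tlr7 and Xpot kept the call in 2, and Ccnd2, Myc and Tnfsf9 in 3. Cflar, Cxcl11, Gbp2, Map3k8 and Mfsd2a kept it in 4, and Clec4e and Gadd45g in 5. The call held in 6 for Pim2 and Zc3h12a and in 7 for Il1rn, Nfkbia and Socs1. Without control ODN array 3 the limma adjusted p reached 0.0592 for Nfkbia, 0.067 for Il1rn and Zc3h12a, 0.106 for Gadd45g, 0.164 for Gbp2, 0.18 for Acod1 and 0.2 for Xpot. Without CpG ODN array 3 it reached 0.0539 for Socs1, 0.0658 for Pim2, 0.0813 for Ccnd2, 0.1 for Cflar and Myc, 0.252 for Adm and 0.351 for Tlr7. It reached 0.129 for Cxcl11 without CpG ODN array 1 and 0.218 for Ikbke without CpG ODN array 4. Among control ODN arrays, leaving out array 1 gave 0.122 for Tnfsf9 and 0.305 for Map3k8, leaving out array 2 gave 0.268 for Mfsd2a, and leaving out array 4 gave 0.0994 for Clec4e. These are the highest adjusted p-values of each gene with 1 array left out. The other groups of the series still entered these fits. With only the 8 arrays in the fit, the 9 genes called were Tnf, Il12b, Ccl3, Nfkbiz, Batf, Ifit1, Marcksl1, Socs1 and Acod1. The other genes of the 17 were not called there.

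Cytokine genes held the largest differences. Tnf, an early product of activated macrophages and lymphocytes, had ratios of 3.88, 3.79, 4.21 and 4.43 in CpG ODN cultures, against 1.04, 1.27, 1.12 and 1.03 in control ODN cultures. The lowest CpG ODN array exceeded the highest control ODN array by a wide margin, and the difference was 2.96 ± 0.23 (SE, adjusted p = 2.81e-09). Il12b, whose product drives interferon gamma production by T and NK cells, had 3.02, 2.72, 3.06 and 3.34 in CpG ODN cultures and 0.46, 0.45, 0.02 and -0.19 in control ODN cultures. Its CpG ODN arrays were tightly grouped, and the difference was 2.85 ± 0.28 (SE, adjusted p = 2.36e-07). Il6, a cytokine of B cell maturation and of the acute phase, had 2.10, 1.66, 2.42 and 2.25 in CpG ODN cultures and 1.26, 0.92, 0.70 and 0.80 in control ODN cultures. Its groups were separate but closer than those of Tnf, with a difference of 1.18 ± 0.20 (SE, adjusted p = 0.00226). Il1rn, the antagonist of the interleukin 1 receptor, had 3.83, 3.64 and 3.63 on the 3 measured CpG ODN arrays and 2.35, 2.71 and 2.05 on the 3 measured control ODN arrays, a difference of 1.33 ± 0.24 (adjusted p = 0.00435). Tnfsf9, the ligand of the costimulatory receptor 4-1BB, lay below the reference for nearly all arrays, with 0.11, -0.80, -0.07 and -0.21 in CpG ODN cultures and -2.13, -1.70, -1.22 and -1.47 in control ODN cultures. Its groups were separate and differed by 1.39 ± 0.29 (SE, adjusted p = 0.0145). Of 35 cytokine genes tested, these 5 rose and 0 fell, beside 37 of all 9630 genes (0.384%) called higher. In this list 26 lay above 0, beside 4544 of all 9630 genes, and the median difference was 0.18, beside -0.01 for all genes.

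Of 27 chemokine genes, 3 rose and 0 fell, beside 37 of all 9630 genes (0.384%) called higher, and the median was 0.12. Ccl3, which attracts monocytes and T cells, had 2.08, 1.77, 2.86 and 2.19 in CpG ODN cultures and 0.02, -0.25, -0.34 and 0.14 in control ODN cultures. The control ODN arrays lay around the array median and all CpG ODN arrays well above it, with a difference of 2.33 ± 0.22 (SE, adjusted p = 5.26e-08). Cxcl10 and Cxcl11 both encode interferon-inducible ligands of the receptor Cxcr3 on activated T and NK cells. Cxcl10 had 2.13, 1.39, 1.11 and 1.33 in CpG ODN cultures and 0.19, 0.36, 0.21 and -0.28 in control ODN cultures, a difference of 1.37 ± 0.23 (SE, adjusted p = 0.00175). Cxcl11 had 1.36, 0.56, 0.80 and 0.70 in CpG ODN cultures and 0.07, 0.27, -0.22 and -0.13 in control ODN cultures, a difference of 0.86 ± 0.18 (SE, adjusted p = 0.0164). For both ligands CpG ODN array 1 was the highest, while array 3 was the highest for most other called genes. Other chemokine genes were not called, among them Cxcl2 with a difference of 0.77, Cxcl9 with 0.34, Ccl4 with 0.17 and Xcl1 with -0.24.

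Among NF-kB subunits and regulators, the called genes were Nfkbiz, Nfkbia, Map3k8 and Ikbke. Of 19 genes tested, 4 rose and 0 fell, beside 37 of all 9630 genes (0.384%) called higher. In this list 13 lay above 0, beside 4544 of all 9630 genes, and the median was 0.28. Nfkbiz, a nuclear inhibitor-like protein needed for late NF-kB targets such as Il6, had 2.85, 2.69, 3.46 and 3.02 in CpG ODN cultures and 0.85, 0.58, 0.51 and 0.99 in control ODN cultures. All CpG ODN arrays lay far above the control ODN arrays, with a difference of 2.27 ± 0.19 (SE, adjusted p = 3.02e-09). Nfkbia, which encodes the cytoplasmic inhibitor of NF-kB and is itself an NF-kB target, had 2.17, 1.97, 2.67 and 2.27 in CpG ODN cultures and 1.29, 1.17, 0.58 and 1.21 in control ODN cultures. Control ODN array 3 was the low one, and the difference was 1.21 ± 0.23 (SE, adjusted p = 0.00527). Map3k8, a kinase that links Toll-like receptors to ERK, had 2.88, 2.91, 4.14 and 3.24 in CpG ODN cultures and 1.70, 1.92 and 2.58 on the 3 measured control ODN arrays, a difference of 1.22 ± 0.26 (adjusted p = 0.0265). Ikbke, a kinase that acts on interferon regulatory factors and NF-kB, had 1.62, 1.56, 1.71 and 2.05 in CpG ODN cultures and 0.74, 0.96, 0.66 and 1.10 in control ODN cultures, a difference of 0.87 ± 0.19 (adjusted p = 0.0279). The groups of Map3k8 and Ikbke did not overlap. Other members of the list were not called. Among them were the subunit genes Nfkb2 (0.70), Rel (0.28), Rela (0.10) and Relb (-0.31) and the kinase genes Ikbkb (0.19) and Map3k14 (-0.30).

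Among Toll-like receptors and their adaptors 1 gene was called, beside 37 of all 9630 genes (0.384%). Of 18 tested, this was Tlr7, an endosomal receptor for single-stranded RNA that signals through Myd88, with a difference of 0.91 ± 0.21 (SE, adjusted p = 0.0396) and the overlap of groups given above. It was the called gene with the largest adjusted p. Tlr9 had 1.27, 2.35, 1.40 and 1.20 in CpG ODN cultures and 1.85, 2.66, 1.30 and 1.36 in control ODN cultures. These overlapped, and the difference of -0.24 ± 0.36 (SE, adjusted p = 1) had a 95% confidence interval from -0.98 to 0.50. Without control ODN array 2 it was 0.05. Myd88 had 0.47, -0.48, 0.40 and 0.35 in CpG ODN cultures and -0.21, -0.73, -0.41 and -0.15 in control ODN cultures, a difference of 0.56 ± 0.21 that was not called (adjusted p = 1). CpG ODN array 2 and control ODN array 2 were the low arrays of their groups. The interferon regulatory factor gene Irf7 had 0 measured values and was not analysed here.

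Among AP-1 factors and other immediate early genes, 4 of 35 tested rose and 0 fell, with a median of 0.06. Of all 9630 genes, 37 (0.384%) were called higher. Batf, an AP-1 factor of lymphocyte activation, had 3.46, 2.88, 4.22 and 3.77 in CpG ODN cultures and 1.84, 1.46, 1.11 and 2.11 in control ODN cultures. Both groups spread widely without touching, and the difference was 1.95 ± 0.29 (SE, adjusted p = 2.46e-04). Myc, a transcription factor of cell growth, had 1.09, 0.93, 2.06 and 1.65 in CpG ODN cultures and 0.04, 0.00, 0.02 and 0.78 in control ODN cultures. Control ODN array 4 stood above the other control ODN arrays and just below the lowest CpG ODN array, and the difference was 1.22 ± 0.25 (SE, adjusted p = 0.0115). Gadd45b and Gadd45g encode stress-induced proteins that act on MAP kinase signalling. Gadd45b had 1.49, 1.75, 1.49 and 1.47 in CpG ODN cultures and 0.66, 0.49, 0.44 and 0.14 in control ODN cultures, a difference of 1.12 ± 0.20 (adjusted p = 0.00267). Gadd45g lay at 0.04, -0.01, -0.10 and -0.16 in CpG ODN cultures and at -0.93, -1.13 and -1.12 on 3 measured control ODN arrays, a difference of 1.00 ± 0.21 (adjusted p = 0.0141). Egr1, an immediate early gene whose induction is short-lived, had the lowest difference of the list at -0.42 and was not called.

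Interferon-inducible genes formed the longest list, with 59 tested, of which 4 rose and 0 fell, beside 37 of all 9630 genes (0.384%) called higher. Of the 59, 49 lay above 0, beside 4544 of all 9630 genes, and 23 were higher at an unadjusted p below 0.05, beside 234 of all genes. The list's median was 0.30, against -0.01 for all genes. Ifit1, which binds viral RNA, had 1.40, 1.41, 1.13 and 1.07 in CpG ODN cultures and -0.28, -0.54, -0.34 and -0.67 in control ODN cultures. All CpG ODN arrays lay above the array median and all control ODN arrays below it, with a difference of 1.71 ± 0.20 (SE, adjusted p = 2.59e-06). Trim30a, which dampens Toll-like receptor signalling, had 1.70, 1.62, 2.15 and 2.13 in CpG ODN cultures and 0.60, 0.68, 0.34 and 1.01 in control ODN cultures, a difference of 1.24 ± 0.23 (adjusted p = 0.00373). Ifi47, an immunity-related GTPase, had 3.30, 3.23, 3.65 and 3.73 in CpG ODN cultures and 2.43, 1.95, 2.08 and 2.86 in control ODN cultures, a difference of 1.15 ± 0.22 (adjusted p = 0.00543). Gbp2, a guanylate-binding GTPase that attacks the vacuoles of intracellular microbes, had 1.04, 1.15, 1.51 and 1.63 in CpG ODN cultures and 0.36, 0.35, -0.12 and 0.62 in control ODN cultures, a difference of 1.03 ± 0.22 (adjusted p = 0.0164). The groups of these 3 genes were separate. Other members lay near the threshold without a call, among them Ifit3 with 1.18 ± 0.28 (adjusted p = 0.0539), the GTPases Tgtp1 with 1.32 ± 0.33 (0.0846) and Irgm1 with 0.88 ± 0.22 (0.097), and the mono-ADP-ribosyltransferase Parp14 with 0.96 ± 0.24 (0.0842). Isg15, a ubiquitin-like modifier, had a difference of 0.68 and Irf1, a transcription factor, 0.83, both not called. Other members lay near or below 0, among them Ifit2 (0.01), Usp18 (-0.18) and Irgm2 (-0.27), the lowest of the list. In a list of 40 cytokine receptors, JAK-STAT genes and their suppressors, only Socs1 was called. In that list 30 lay above 0, beside the 4544 of all 9630 genes, and the median was 0.16. Socs1, the inhibitor of JAK kinases, had 0.11, 0.53, 0.70 and 0.65 in CpG ODN cultures and -1.0, -0.90, -0.91 and -0.68 in control ODN cultures, a difference of 1.37 ± 0.27 (adjusted p = 0.00872).

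Short sequence patterns were looked up upstream of the called genes, because NF-kB and interferon targets were among them. The windows cover the 250 bases before the annotated start in RefSeq's table for GRCm38.p6, in which 30 of the 37 called genes had an entry. The patterns were GGGANNTTCC, a form of the NF-kB site, and GAAANNGAAA, a form of the interferon-stimulated response element, each on both strands, where they read GGAANNTCCC and TTTCNNTTTC. The NF-kB form was found for Nfkbia, Il6 and Cxcl10, which is 3 of 30 called genes (10.0%), beside 106 of 7644 tested genes with a window (1.39%) and 397 of all 32851 windows (1.21%). The interferon form was found for Cxcl10, Gbp2, Ifit1, Socs1 and Trim30a, which is 5 of 30 (16.7%), beside 246 of 7644 tested genes (3.22%) and 978 of 32851 windows (2.98%). In Socs1 a pair of matches of the interferon form overlap. A match describes these letters only and is neither a binding site shown by these data nor a cause. Shown are the windows of 4 genes, with the matches in capitals, each read 5′ to 3′ on the gene's strand: Nfkbia (chr12:55492648-55492897, minus strand), Il6 (chr5:30012864-30013113, plus strand), Cxcl10 (chr5:92348890-92349139, minus strand) and Ifit1 (chr19:34640639-34640888, plus strand). Nfkbia and Il6 hold only the NF-kB form, Ifit1 a pair of the interferon form, and Cxcl10 both forms.
Nfkbia: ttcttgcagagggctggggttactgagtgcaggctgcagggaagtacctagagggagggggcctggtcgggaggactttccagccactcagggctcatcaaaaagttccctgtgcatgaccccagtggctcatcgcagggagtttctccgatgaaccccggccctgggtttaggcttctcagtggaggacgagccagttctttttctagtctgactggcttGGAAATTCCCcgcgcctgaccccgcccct
Il6: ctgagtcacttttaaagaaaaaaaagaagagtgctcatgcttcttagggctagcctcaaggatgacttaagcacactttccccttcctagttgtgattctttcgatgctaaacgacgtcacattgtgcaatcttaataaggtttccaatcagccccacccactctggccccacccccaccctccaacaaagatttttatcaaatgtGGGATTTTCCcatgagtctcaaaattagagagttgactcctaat
Cxcl10: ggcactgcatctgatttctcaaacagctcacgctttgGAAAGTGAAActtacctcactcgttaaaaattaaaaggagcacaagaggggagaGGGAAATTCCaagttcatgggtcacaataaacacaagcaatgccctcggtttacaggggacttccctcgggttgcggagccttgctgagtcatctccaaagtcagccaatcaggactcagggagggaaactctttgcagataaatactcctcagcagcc
Ifit1: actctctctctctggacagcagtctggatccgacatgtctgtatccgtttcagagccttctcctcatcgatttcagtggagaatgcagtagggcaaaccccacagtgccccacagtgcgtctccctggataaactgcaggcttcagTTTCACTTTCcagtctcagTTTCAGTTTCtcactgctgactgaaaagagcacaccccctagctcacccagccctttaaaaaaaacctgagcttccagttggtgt

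Lymphocyte activation and costimulation genes had a median of 0.26 over 31 tested genes, with 24 above 0, 1 higher call and 0 lower. Of all 9630 genes, 4544 lay above 0 and 37 (0.384%) were called higher. The called gene was Swap70, a protein of B cell activation and migration. It had 2.96, 2.46, 3.61 and 3.86 in CpG ODN cultures and 1.51, 0.79, 1.29 and 2.32 in control ODN cultures, a difference of 1.75 ± 0.31 (SE, adjusted p = 0.00303). Array 4 was the highest of both groups, and the lowest CpG ODN array stood just above it in control ODN cultures. The early activation antigen Cd69 had a difference of 1.36 ± 0.37 (adjusted p = 0.191), the costimulatory receptor Cd40 0.93 ± 0.31 (0.625) and Irf4, a transcription factor of plasma cell development, 1.03 ± 0.27 (0.109), all without a call.

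Enzymes of inflammation and of oxidative stress were called singly. Ptgs2, the inducible cyclooxygenase of prostaglandin synthesis, lay below the reference. It had -0.64, -0.47, -1.52 and -1.67 in CpG ODN cultures and -2.54, -2.75, -2.80 and -3.18 in control ODN cultures. CpG ODN arrays 1 and 2 stood above arrays 3 and 4, and the difference was 1.74 ± 0.32 (SE, adjusted p = 0.00357). It was the only gene called among 16 of prostaglandin and eicosanoid metabolism, whose median was -0.13. Tbxas1, the thromboxane synthase gene, had the lowest difference of that list, -0.94, without a call. Acod1, which makes the antimicrobial metabolite itaconate in macrophages, had 1.59, 1.76, 1.78 and 2.04 in CpG ODN cultures and 0.51, 0.45, 0.04 and 0.69 in control ODN cultures, a difference of 1.37 ± 0.30 (adjusted p = 0.0251). Sod2, the mitochondrial superoxide dismutase and a classical NF-kB target, had 0.32, 0.09, 0.56 and 0.14 in CpG ODN cultures and -0.67, -0.74, -0.98 and -0.42 in control ODN cultures, a difference of 0.98 ± 0.18 (adjusted p = 0.00365). The groups of both were separate. These 2 rose among 18 genes of oxidative and metal stress, beside 37 of all 9630 genes (0.384%) called higher. In that list 0 were called lower, and the median was 0.13.

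Survival and cell cycle lists gave 2 calls and 1 call, beside 37 of all 9630 genes (0.384%). Of 26 apoptosis regulators 2 rose and 0 fell, with a median of 0.05. Pim2, a survival kinase of lymphocytes, had 2.09, 1.89, 2.86 and 2.34 in CpG ODN cultures and 1.37, 0.97, 0.78 and 1.29 in control ODN cultures, a difference of 1.19 ± 0.23 (SE, adjusted p = 0.0067). Cflar, an inhibitor of caspase activation by death receptors, had 0.60, 0.74, 1.58 and 1.21 in CpG ODN cultures and 0.09, -0.11, 0.11 and 0.43 in control ODN cultures, a difference of 0.90 ± 0.18 (SE, adjusted p = 0.0115). Another probe of Cflar gave a difference of 0.41 ± 0.33 (SE), smaller than that of the probe tested. Of 48 genes of the cell cycle and DNA replication, only Ccnd2, a D-type cyclin of resting cells entering the cycle, was called. It had -0.65, -0.08, -0.11 and -0.26 in CpG ODN cultures and -1.36, -1.27, -1.40 and -1.32 in control ODN cultures, a difference of 1.06 ± 0.22 (adjusted p = 0.0145). The median of the list was -0.13, with 12 of 48 above 0, beside 4544 of all 9630 genes.

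Of the 37 called genes, 8 stood in none of the 16 functional lists. Il4i1, an oxidase of aromatic amino acids secreted by activated B and myeloid cells, had 2.95, 3.32, 4.43 and 4.49 in CpG ODN cultures and 1.92, 1.97 and 1.27 on the 3 measured control ODN arrays. CpG ODN arrays 3 and 4 were the high ones, and the difference was 2.08 ± 0.35 (SE, adjusted p = 0.00203). Marcksl1, an actin-binding substrate of protein kinase C, had 1.53, 1.38, 1.74 and 1.28 in CpG ODN cultures and 0.31, 0.23, 0.13 and 0.24 in control ODN cultures. Both groups were narrow, and its difference of 1.25 ± 0.17 (SE) had the smallest adjusted p of the 8 genes, 8.34e-05. Plscr1, a phospholipid scramblase known to be induced by interferon, had -0.28, -0.34, 0.88 and 0.05 in CpG ODN cultures and -1.22, -1.57, -1.40 and -0.89 in control ODN cultures, a difference of 1.35 ± 0.23 (adjusted p = 0.00203). Zc3h12a, a ribonuclease that degrades cytokine transcripts such as those of Il6 and Il12b, had 1.78, 1.92, 2.71 and 2.37 in CpG ODN cultures and 1.25, 1.22, 0.79 and 1.31 in control ODN cultures, a difference of 1.05 ± 0.20 (adjusted p = 0.0067). The groups of both genes were separate, and CpG ODN array 3 was the highest. Mfsd2a, a transporter of lysophosphatidylcholine, had 0.60, 0.52, 1.55 and 1.05 in CpG ODN cultures and -0.88, -0.28 and 0.17 on 3 control ODN arrays, a difference of 1.26 ± 0.26 (adjusted p = 0.0141). Clec4e, a macrophage receptor for mycobacterial glycolipids, had 1.39, 1.29, 0.96 and 1.21 in CpG ODN cultures and 0.15, 0.06 and -0.11 on 3 control ODN arrays, a difference of 1.18 ± 0.24 (adjusted p = 0.0141). Neither gene overlapped between groups. Adm, which encodes the vasodilator adrenomedullin, had -0.61, -0.81, -0.12 and -0.57 in CpG ODN cultures and -1.79, -1.58, -1.69 and -0.83 in control ODN cultures, a difference of 0.94 ± 0.21 (adjusted p = 0.0279). Its control ODN array 4 nearly reached the lowest CpG ODN array. Xpot, the nuclear exporter of tRNA, had -0.43, -0.26, -0.78 and -0.59 in CpG ODN cultures and -0.95, -1.26, -1.50 and -1.61 in control ODN cultures, a difference of 0.82 ± 0.19 (adjusted p = 0.0356).

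**Figure D3:**
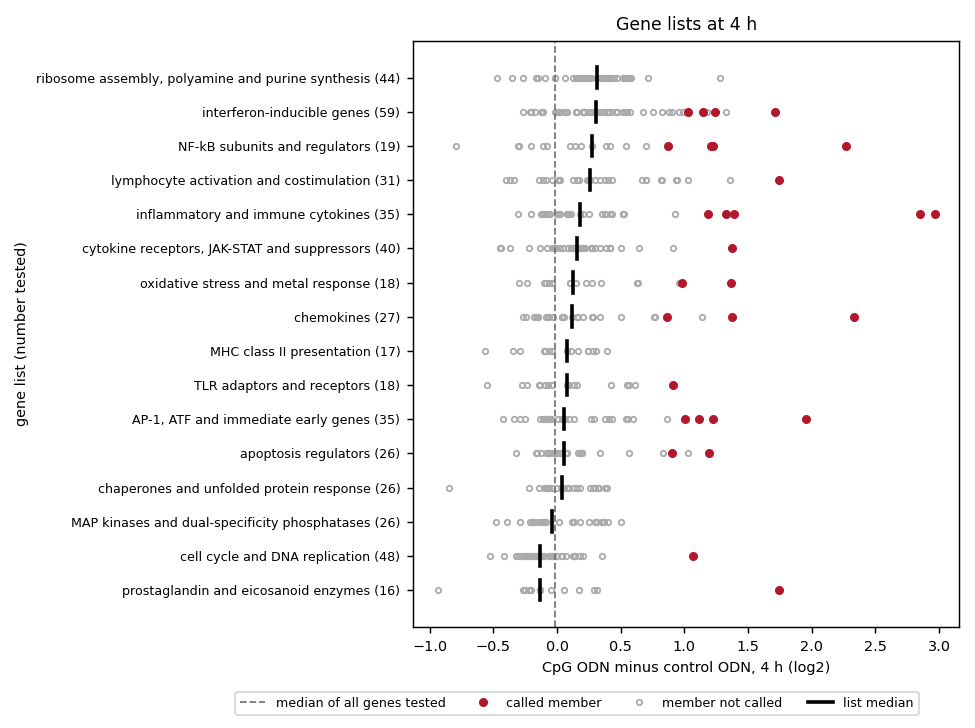
Difference between CpG ODN and control ODN cultures at 4 h (x axis, log2) of every tested member of the 16 functional lists (y axis, number tested in parentheses), with called members in red, the others as open circles, a black bar at each list's median and a dashed line at the median of all genes, -0.01. List medians run from -0.13 to 0.31, and the called members lie to the right of most of their list.

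Lists without a call differed in their medians. The 44 genes of ribosome assembly and of polyamine and purine synthesis had the highest median of the 16 lists, 0.31. Of these, 36 lay above 0, beside 4544 of all 9630 genes, 8 were higher at an unadjusted p below 0.05 and 0 were called. Pprc1, a coactivator of growth genes, had the smallest p of that list, with 0.37, 0.30, 0.56 and 0.46 in CpG ODN cultures and -0.14, -0.28, -0.11 and -0.03 in control ODN cultures, a difference of 0.56 ± 0.17 (adjusted p = 0.458). Its groups were narrow and separate. Srm, the spermidine synthase gene and a known Myc target, had a difference of 1.28 ± 0.43 (adjusted p = 0.708) with 2 control ODN arrays measured. Over all genes tested, limma called 0.384%, and 3.17% passed an unadjusted p of 0.05, so counts of 0 in short lists say little. MAP kinases and their phosphatases (26 tested, median -0.04), chaperones and unfolded protein response genes (26, median 0.04) and MHC class II presentation genes (17, median 0.08) had 0 limma calls and 0 genes that passed an unadjusted p of 0.05. Their members with the smallest p were the kinase Rps6ka3 with -0.48 ± 0.24, Edem1, which acts in the degradation of misfolded glycoproteins, with -0.85 ± 0.50, and Rfx5, a factor of class II promoters, with 0.39 ± 0.21, each with an adjusted p of 1.

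Near the threshold, 7 genes had an adjusted p from 0.05 to 0.10, all of them higher in CpG ODN cultures. Besides the 4 interferon-inducible genes named above they were Jun, Traf1 and Spag16. Jun, the AP-1 subunit, had -0.48, -0.31, 0.27 and -0.44 in CpG ODN cultures and -1.10, -0.92, -1.30 and -1.09 in control ODN cultures, a difference of 0.86 ± 0.21 (adjusted p = 0.0709). Traf1, a signalling adaptor of TNF receptors and an NF-kB target, had 3.94, 3.75, 4.93 and 4.99 in CpG ODN cultures and 3.31, 3.02, 2.69 and 3.70 in control ODN cultures, a difference of 1.22 ± 0.30 (adjusted p = 0.0846). Spag16, a gene of the sperm axoneme, had -1.53, -1.19, -1.61 and -1.50 in CpG ODN cultures and -2.56, -2.19 and -2.70 on 3 control ODN arrays, a difference of 1.03 ± 0.25 (adjusted p = 0.0812). The groups of all 3 were separate. A difference of at least 1 in size was found for 40 genes that were not called, 29 higher and 11 lower, of which 11 higher and 2 lower genes were measured on all 8 arrays.

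On the low side, 10 genes with the lowest differences at an unadjusted p below 0.05 and values on all 8 arrays were examined, and 0 of them were called. Plin2, which coats lipid droplets, had the smallest p of these, with -1.89, -1.61, -1.88 and -2.07 in CpG ODN cultures and -0.88, -0.86, -1.28 and -1.29 in control ODN cultures. Its groups were separate, and the difference was -0.78 ± 0.21 (SE, adjusted p = 0.146). With arrays weighted by quality both Plin2, at -0.86 (adjusted p = 0.00966), and Ccr6, at -1.72 (adjusted p = 0.0341), were called lower. Ccr6, a chemokine receptor of B cells and some T cells, had 0.49, 1.28, -1.05 and 0.41 in CpG ODN cultures and 2.60, 2.41, 1.96 and 0.26 in control ODN cultures, a difference of -1.52 ± 0.47 (adjusted p = 0.458). Control ODN array 4 lay within the CpG ODN range, and without it Ccr6 was called lower, at -2.04 (adjusted p = 0.0239). The fungal glucan receptor gene Clec7a had 0.50, -0.18, 0.98 and 0.17 in CpG ODN cultures and 1.45, 1.10, 0.98 and 1.60 in control ODN cultures, a difference of -0.92 ± 0.32 (adjusted p = 0.814), and its groups met at 0.98. Mcur1, a regulator of mitochondrial calcium uptake, had -1.90 on CpG ODN array 1 and 1.03, 1.17 and 0.93 on the other CpG ODN arrays, against 1.03, 1.29, 0.86 and 1.15 in control ODN cultures. Its difference was -0.78 ± 0.36 (adjusted p = 1), and -0.04 without that array. The other 6 were Trdn (-1.15), Rgs2 (-0.70), Mbtd1 (-0.68), Phospho2 (-0.66), Dhcr7 (-0.65) and Hal (-0.64). The groups of Dhcr7, which encodes the last enzyme of cholesterol synthesis, and of the histidine-degrading enzyme gene Hal did not overlap, and those of the other 4 did. A second probe of Phospho2 had a difference of -0.03 ± 0.24 (SE).

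The same CpG ODN arrays were also set against medium at 4 h, and the control ODN arrays against the same medium arrays, so these comparisons share arrays. Against medium 21 of 9654 genes were called (0.218%), 20 higher (0.207%) and 1 lower (0.0104%). For the 37 genes the median difference from medium was 1.11, beside -0.04 for all genes, and all 37 lay above 0, from 0.58 for Cflar to 2.88 for Il12b. Of the 37, 19 were called against medium. The other higher gene was Ifit3 with 1.34 ± 0.28 (adjusted p = 0.0236). The lower gene was Ccdc97, with -1.36 (adjusted p = 0.0433) and means of 1.20 ± 0.36 in CpG ODN cultures and 2.56 ± 0.52 in medium (SD, n = 4 each), named after its values were seen. The count of 21 was 5 with only the groups compared in the fit and 58 with array weights. Between control ODN and medium limma called 0 of 9637 genes, 176 (1.83%) passed an unadjusted p of 0.05, and 1 gene, the splicing regulator Tra2b, was called lower when only those groups entered the fit. For the 37 genes the control ODN lay below medium by a median of -0.14, beside -0.04 for all genes, with 4 of 37 above 0. Ifi47 lay lowest at -0.40 ± 0.22 and Cxcl10 highest at 0.09 ± 0.24, each with an adjusted p of 1.

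**Figure D4:**
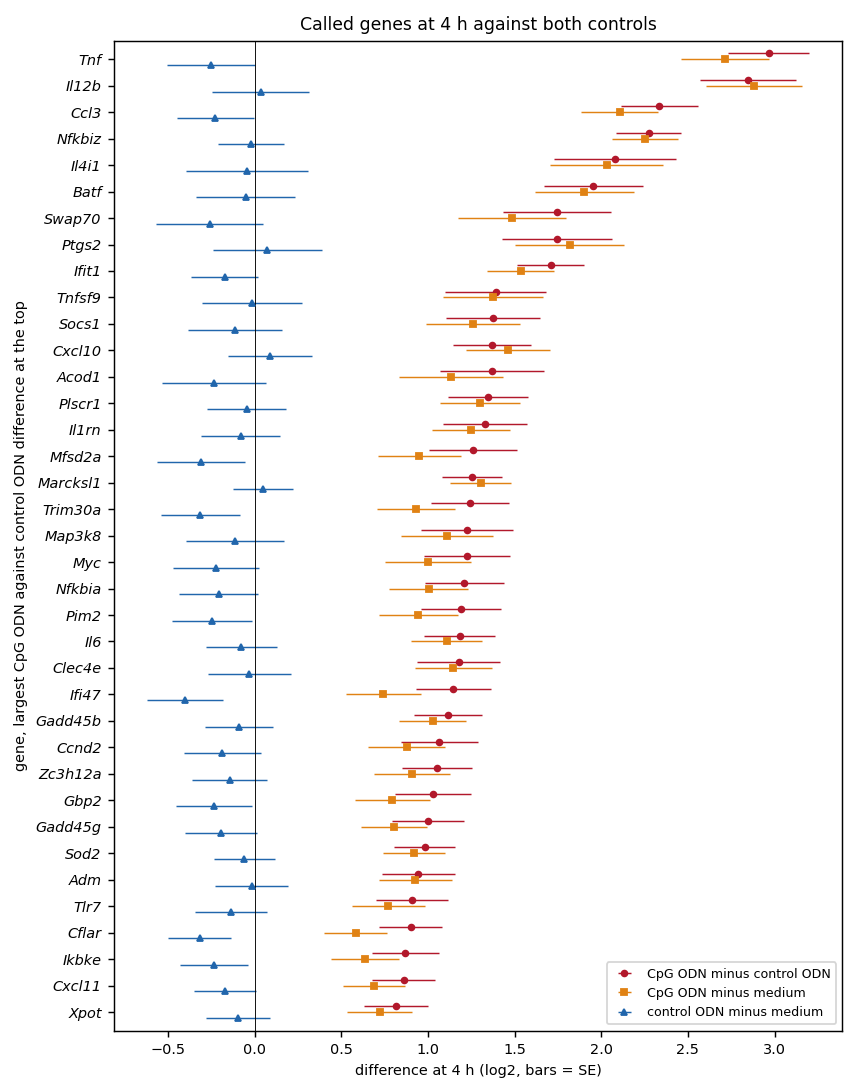
Differences at 4 h (x axis, log2, bars SE) of the 37 called genes (y axis) for CpG ODN against control ODN (red circles), CpG ODN against medium (orange squares) and control ODN against medium (blue triangles), which share arrays. Red and orange points lie at 0.58 or higher for every gene, and blue points between -0.40 and 0.09.

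The 37 genes were then followed over time, with differences between CpG ODN and control ODN cultures at 2 h and 8 h from other arrays. Their median difference was 0.36 at 2 h, 1.22 at 4 h and 1.69 at 8 h, while that of all genes was -0.02 at 2 h, -0.01 at 4 h and -0.12 at 8 h. At 2 h, 4 of 9302 genes (0.043%) were called, and these 4, all higher, were Tnf (2.28 ± 0.24), Nfkbiz (1.91 ± 0.19), Ptgs2 (2.35 ± 0.32) and Ccl3 (1.61 ± 0.22), all of which are among the 37. At 8 h, 949 of 9494 genes (10%) were called, 432 higher (4.55%) and 517 lower (5.45%), and of the 37 genes 30 were called higher and 0 lower. The 37 were chosen at 4 h, so the median at 4 h is fixed by that choice and its size is not comparable with those at 2 h and 8 h.

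The change of the difference between times was tested as an interaction in the same limma fit. From 2 h to 4 h, 1 of 9260 genes (0.0108%) was called, Ifit1, whose difference was larger at 4 h by 1.69 ± 0.29 (SE, adjusted p = 0.0204). At 2 h Ifit1 had -0.64, -0.53, -0.17 and -0.35 in CpG ODN cultures and -0.50, -0.62 and -0.19 on the 3 measured control ODN arrays, which overlapped. The count of 1 became 0 without CpG ODN 4 h array 1, control ODN 4 h arrays 2 or 4, CpG ODN 2 h arrays 1 or 2, or control ODN 2 h arrays 1 or 3. It became 2 without CpG ODN 4 h array 2 or control ODN 2 h array 2, and 6 with array weights. From 4 h to 8 h, 197 of 9456 genes (2.08%) were called, 118 with a larger difference at 8 h (1.25%) and 79 with a smaller one (0.835%). Of the 37 genes 10 were called, all with a larger difference at 8 h, and 22 of 37 changes lay above 0. The median change was 0.15 for the 37 and -0.11 for all genes. The count of 197 was 115 without CpG ODN 8 h array 2, 123 without CpG ODN 8 h array 3 and 130 without control ODN 8 h array 2. The 10 genes were the chemokines Cxcl11 (3.82 ± 0.28) and Cxcl10 (3.59 ± 0.34), the cytokine Il6 (2.81 ± 0.31), the interferon-inducible genes Gbp2 (2.76 ± 0.33), Ifit1 (2.72 ± 0.30) and Trim30a (1.80 ± 0.35), and Socs1 (2.42 ± 0.41), Mfsd2a (1.56 ± 0.38), Tlr7 (1.49 ± 0.32) and Ccnd2 (1.36 ± 0.34). At 8 h Cxcl11 had 5.17, 4.86 and 5.39 in CpG ODN cultures against 0.64, 0.37 and 0.36 in control ODN cultures. Ifit1 at 8 h had 4.15, 3.79 and 4.16 in CpG ODN cultures against -0.38, 0.08 and -0.88 in control ODN cultures. For both genes every CpG ODN array stood far above every control ODN array.

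The changes of the other 27 genes from 4 h to 8 h were not called. The 4 h arrays that gave the calls enter these changes, so a smaller difference at 8 h can follow from the choice at 4 h. Tnf had 3.68, 3.96 and 3.72 in CpG ODN cultures at 8 h and 1.82, 0.87 and 1.15 in control ODN cultures, and its change from 4 h was -0.46 ± 0.36 (adjusted p = 0.75). Il4i1 had 3.48, 3.46 and 3.66 in CpG ODN cultures at 8 h against 3.74, 3.29 and 2.92 in control ODN cultures. These overlapped, the change of the difference from 4 h was -1.86 ± 0.52 (adjusted p = 0.0532), and the mean in control ODN cultures was 1.72 ± 0.39 (SD, n = 3) at 4 h and 3.32 ± 0.41 (SD, n = 3) at 8 h. Clec4e, which differed by 1.00 ± 0.24 at 2 h without a call (adjusted p = 0.334), had 0.24, -0.72 and -0.73 in CpG ODN cultures at 8 h against 0.15, -0.65 and -0.56 in control ODN cultures. It was the only gene of the 37 with a difference below 0 at 8 h, -0.05 ± 0.26, and its change from 4 h was -1.23 ± 0.35 (adjusted p = 0.0671). The kinase gene Ikbke had 2.04, 1.84 and 1.80 in CpG ODN cultures at 8 h against 1.49, 2.23 and 1.87 in control ODN cultures, which overlapped. Its difference at 8 h was 0.03 ± 0.22, and its change from 4 h was -0.84 ± 0.30 (adjusted p = 0.179). With these 3 genes, Adm (0.32), Zc3h12a (0.37), Xpot (0.47) and Pim2 (0.60) were the 7 of the 37 that were not called at 8 h.

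**Figure D5:**
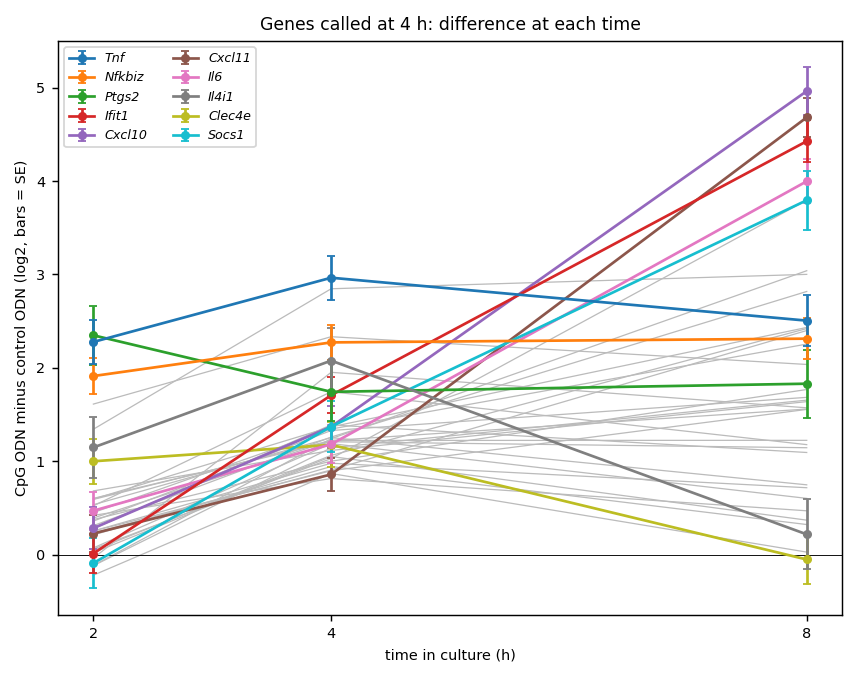
Difference between CpG ODN and control ODN cultures (y axis, log2) at 2, 4 and 8 h in culture (x axis) for the 37 genes called at 4 h, with 10 genes in colour with SE bars and the others in grey. Cxcl10, Cxcl11, Ifit1, Il6 and Socs1 lie between 3.79 and 4.96 at 8 h, Tnf, Nfkbiz and Ptgs2 lie between 1.74 and 2.96 at every time, and of the coloured genes Il4i1 and Clec4e lie near 0 at 8 h, as does Ikbke among the grey lines.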

How the data were processed

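The values are the deposited log2 ratios of Cy5 (spleen cell RNA) over Cy3 (reference RNA), 1 per probe and array. The direction follows from the dyes per the labels. The sources used here do not state the log base or how the authors corrected background, filtered spots and normalized arrays. Of 16720 probes, the platform annotation, which can be old, pairs 14656 with 1 gene symbol. Probes with several symbols (6) or none (2058) were left out, and for the 511 genes with several probes the most completely measured probe was used.

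The median of an array was subtracted from its values. Limma 3.58.1 (R 4.3.3) fitted a mean per group to all 33 arrays in 9 groups, moderated the variances and adjusted p-values over all genes tested by the Benjamini-Hochberg method. Genes with at least 2 measured arrays in every group compared were tested, and called at an adjusted p below 0.05. All errors marked SE, and those beside a difference, are from this fit, which was tested on simulated data first. The number of arrays limits the precision.

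Genes named are all called genes, those with an adjusted p from 0.05 to 0.10, the 10 lowest differences at an unadjusted p below 0.05 on 8 measured arrays, the member with the smallest p of each list without a call, genes called only with the repeat number as a block, Tlr9, Myd88 and Irf7. Isg15, Irf1, Ifit2, Usp18, Irgm2, Cd69, Cd40, Srm, Egr1, Tbxas1, Ccdc97 and Tra2b were named after their values were seen. So were Nfkb2, Rel, Rela, Relb, Ikbkb, Map3k14, Cxcl2, Cxcl9, Ccl4 and Xcl1. The members, gene lists and rule were chosen with earlier results of these data known. Alternatives covered centring, quantile normalization, the arrays fitted, array weights, filters, probe choice, the block and arrays left out.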

Additional observations from a re-analysis of the deposited data

Results flagged for a closer look

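On 5 of 122 sets of 4 arrays examined for the named genes, 1 array stood far from the other 3, which chance does for about 1 in 20 such sets. In CpG ODN cultures, Gadd45b was 1.75 on array 2 and between 1.47 and 1.49 on the others, Myd88 was -0.48 on array 2 and between 0.35 and 0.47 on the others, and Mcur1 was -1.90 on array 1 and between 0.93 and 1.17 on the others. In control ODN cultures, Myc was 0.78 on array 4 and between 0.00 and 0.04 on the others, and Il13 was -0.13 on array 2 and between 0.96 and 1.09 on the others.

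The difference between CpG ODN and control ODN cultures itself changed with time for some of the named genes, by the limma interaction test. For Ifit1 the difference grew by 1.69 between 2 h and 4 h. Between 4 h and 8 h it grew by 3.82 for Cxcl11, 3.59 for Cxcl10, 3.57 for Ifit3, 2.81 for Il6, 2.76 for Gbp2, 2.72 for Ifit1, 2.42 for Socs1 and 2.06 for Irgm1. In the same interval it grew by 1.95 for Spag16, 1.80 for Trim30a, 1.66 for Gbp3, 1.56 for Mfsd2a, 1.49 for Tlr7, 1.49 for Parp14, 1.45 for Jun and 1.36 for Ccnd2. The changes from 4 h to 8 h share the 4 h arrays with the calls at 4 h.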

How the results depend on the processing

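Over 20 alternative settings, the 37 called genes gave 734 differences, of which 0 were below 0 and 154 were not called. The count of 37 was 35 without centring, 37 with quantile normalization (34 shared) and 25 with only the 4 h groups. It was 9 with only the 8 arrays in the fit, 61 with array weights (59 higher, 2 lower), 19 to 39 with 1 array left out, and 10 without both arrays numbered 3. Tlr9 ranged from -0.504 without CpG ODN array 2 to 0.051, above 0, without control ODN array 2. Repeat numbers were checked as pairs over 6634 genes. Same-numbered CpG ODN and control ODN arrays deviated from their group means with correlations of 0.304, 0.541, -0.318 and 0.433. CpG ODN arrays 1, 2 and 4 each correlated best with the control ODN array of their own number. CpG ODN array 3 did not, and reached 0.58 with a control ODN array of another number. The numbers were therefore not taken to pair the samples, and whether an array was misnumbered was not tested. With the repeat number as a block, 48 of 9554 genes were called, 47 higher and Plin2 lower (-0.78, adjusted p = 0.0161), including all 37. The genes added were Jun, Parp14, Traf1, Tgtp1, Irgm1, Plin2, Tagap1, Il13, Irf4, Gbp3 and Nampt. Against medium the count of 21 was 5 with only the groups compared, 33 with the block, 58 with array weights (43 higher, 15 lower) and 16 to 24 with 1 array left out. For control ODN against medium the count of 0 was 1 with only the groups compared. For the change from 2 h to 4 h, the count of 1 was 6 with array weights and 0 to 2 with 1 array left out. It was 0 on genes measured on every array and 0 without the 4 arrays of low database number. Ifit1 had too few measured control ODN 2 h arrays to be tested in these settings. Those counts of 0 therefore say nothing about its call. For the change from 4 h to 8 h, the count of 197 was 98 with only the groups compared, 329 with the block, 414 with array weights and 115 to 214 with 1 array left out. Its split of 118 larger and 79 smaller was 124 and 18 with quantile normalization, 123 and 56 without centring, 164 and 165 with the block and 177 and 237 with array weights. The cause of these shifts was not tested.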
